A study of Mus musculus with 82 samples.

Results

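This account covers the comparison of synaptoneurosome mRNA with homogenate mRNA in mice that drank water only. Its members are the 22 mRNA arrays of the authors' normalized table for that comparison, out of 82 arrays in the series: 11 of synaptoneurosomes (SN) and 11 of total homogenate (TH), paired by the mouse they came from. Per the labels, the mice were C57Bl6/J females aged 2 months, housed singly, whose extended amygdala (the forebrain arc that links the central amygdala with the bed nucleus of the stria terminalis) was dissected and homogenized. For TH, 10% of each homogenate was frozen as it was, and for SN the rest was pressed through filters with pores of 100 µm and then 5 µm and pelleted at 14000 g for 20 min. The pellet was not sorted further, so SN is a size fraction and not a purified cell part. A second set of 8 pairs came from mice that had chosen between water and 20% ethanol for 30 days. These alcohol mice serve here only to show the same difference in animals that the main comparison did not use.

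A synaptoneurosome is a pinched-off presynaptic bouton that has resealed together with its attached spine head. Because dendrites, axons and the fine processes of glia carry their own selection of mRNAs, filtered fractions of this kind are used to ask which transcripts sit away from the cell body. In neurons, mRNAs such as Camk2a and Arc travel into dendrites on kinesin motors. In oligodendrocytes, Mbp mRNA travels to the myelin sheath, and in astrocytes some mRNAs are found in the endfeet and perisynaptic leaflets.

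At a detection p-value under 0.01, SN arrays detected 16843.5 ± 496.7 of 45281 probes (SD, n = 11) and TH arrays 17302.8 ± 340.4 (SD, n = 11). SN was lower in 9 of 11 mice, with a mean difference of -459.4 probes (exact sign-flip permutation test over mice, two-sided, p = 0.0518). At a detection p-value under 0.05 the difference was -688.4 (exact p = 0.00586), and the test at 0.01 also passed without mouse 1 (exact p = 0.0156) or mouse 5 (exact p = 0.0234). The samples of a mouse varied together: deviations from the fraction means correlated between its SN and TH arrays at 0.08 to 0.62, and in 9 of 11 mice the SN array was nearest to its own TH array. In mouse 4 (0.21 with its own, 0.44 with another) and mouse 9 (0.08 and 0.15) it correlated better with the TH array of another mouse. All differences below are SN minus TH within a mouse on the authors' log2-like scale, which compresses weak signals, so changes of dim genes are understated.

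Most changes were small and many were called. Of 12623 genes, each represented by its brightest probe, 2526 (20%) were called higher in SN and 2693 (21.3%) lower at an adjusted p under 0.05 in limma, and 3513 of the 5219 called genes differed by less than 0.25. Every list count below is to be read against these shares, which depended on signal level. With genes split into 5 groups by level, 7.56% of the dimmest were higher and 6.53% lower. Of the brightest group 28.2% were higher and 33.1% lower, so counts of lists of bright genes are to be read against those. In all 11 pairs, 1127 genes (8.93%) were called higher and 1182 (9.36%) lower. The ranges of the SN and TH arrays did not overlap for 316 genes higher in SN (2.5%) and 307 lower (2.43%). The median over all genes was 0.00. With arrays centred on their medians in place of the authors' normalization, the calls over all probes split into 60.9% higher, against 47.8% higher in the main fit.

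The 15 largest rises and the 15 largest falls that held in all 11 pairs included many genes of the groups described below. Beyond those groups, Myo6, the myosin that walks towards the minus end of actin, rose by 0.98 (SE 0.04), and Rftn2, a lipid raft protein, rose by 1.03 (SE 0.05). Tns3, a focal adhesion protein, rose by 1.03 (SE 0.05), Zcchc24 by 1.00 (SE 0.04) and the transcripts BC055107 and LOC233080 by 1.03 and 0.99. For Myo6 the SN arrays read 10.64 to 11.22 and the TH arrays 9.81 to 10.14, with no overlap. A further probe, named mtDNA_ND4L on the array, rose by 1.36 (SE 0.10). By its name it belongs with the mitochondrial transcripts described below, whose list counts another probe for mt-Nd4l. Among the falls, Pltp, which transfers phospholipids between lipoproteins, fell by 0.98 (SE 0.05), and the transcript 2900060B14Rik by 1.04 (SE 0.07).

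Transcripts of blood vessels were lower in SN. Of 30 endothelial markers listed, 19 were in the normalized table. Of these, 18 were called lower and 0 higher, with a median of -0.76, and 16 were lower in all 11 pairs. For 13 of the 19 the SN and TH arrays did not overlap. Cldn5, the tight junction protein that seals the blood-brain barrier, read 8.37 to 8.56 in SN (median 8.41) and 9.86 to 10.52 in TH (median 10.23). Every SN array was below every TH array, and the mean difference was -1.80 (SE 0.06, adjusted p = 2.04e-09). Slc2a1, the glucose transporter of the barrier, read 9.35 to 9.73 in SN (median 9.57) and 10.21 to 10.54 in TH (median 10.45), again without overlap, a difference of -0.84 (SE 0.05). Ly6a, a surface protein of mouse endothelium, had the largest fall among genes lower in every pair. It read 8.21 to 8.61 in SN and 10.14 to 10.68 in TH, a difference of -1.996 (SE 0.05, adjusted p = 3.16e-10). The receptor Flt1 differed by -1.65 (SE 0.05), the adhesion molecule Esam by -1.38 (SE 0.05), and Ly6c1 and Itm2a by -1.41 and -1.21. Tek, the angiopoietin receptor, differed by -0.56 (SE 0.03) and Vwf, the clotting factor stored in endothelium, by -0.54 (SE 0.08), the latter in 10 of 11 pairs. Kdr, a receptor for vascular endothelial growth factor, was the member that did not pass, at -0.00 (adjusted p = 0.955). Its probe was detected at a p under 0.01 on 3 SN and 4 TH arrays, so little could be seen of it in either fraction. In these bulk samples, fewer cells of a type and less RNA per cell cannot be told apart.

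The remaining cells of the vessel wall moved the same way with more exceptions. Among 10 markers of pericytes and smooth muscle, 6 were called lower and 0 higher (median -0.22), and among 13 markers of vessel and meningeal fibroblasts 9 were lower and 0 higher (median -0.31). Acta2, the actin of smooth muscle, read 8.36 to 9.68 in SN (median 8.69) and 9.64 to 10.89 in TH (median 9.95). The ranges touched, and single mice ran from -2.15 in mouse 10 to -0.02 in mouse 4, with a mean of -1.38 (SE 0.15, adjusted p = 2.08e-05). Mouse 4 is 1 of the 2 whose SN array was not nearest to its own TH array, and Acta2 passed without it too. Igfbp7, a secreted binding protein of vessel walls, fell by 1.36 (SE 0.06), and in the fibroblast list the chemokine Cxcl12 fell by 1.96 (SE 0.04) and Mgp, an inhibitor of calcification, by 0.97 (SE 0.06). Vtn, the adhesive glycoprotein vitronectin made by pericytes, fell by 0.92 (SE 0.06) in all 11 pairs. Igf2, a growth factor of meninges and choroid plexus, fell by 0.64 (SE 0.07) and Ptgds, the prostaglandin D synthase of meninges, by 0.66 (SE 0.07). Pdgfrb and Notch3, receptors of mural cells, did not pass at -0.03 and -0.05. Of 4 blood markers 2 were lower and 0 higher: the globin mRNAs of red cells, Hbb-b1 and Hba-a1, fell by 1.03 (SE 0.08) and 1.02 (SE 0.10), each in all 11 pairs.

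Summed over its tested members on a linear, quantile-normalized scale, the endothelial list reached 5665 to 7141 on SN arrays and 13490 to 16730 on TH arrays, and was lower in SN in 11 of 11 mice. None of these 19 members was undetected on all SN arrays, which the detection filter of the normalized table largely fixed in advance. Of the 11 listed members outside that table, 9 were undetected on all SN arrays, among them Pecam1, Tie1 and Sox17. However, 3 of the 11 were detected on no TH array either, so they show no loss from SN. Values of this kind are given here for the other lists too, because these markers move with the same split of samples as every other gene below, and their part in those results was not tested. The sums were 179500 to 233200 in SN and 131700 to 154300 in TH for astrocytes, higher in SN in all mice. For neurons they were 71510 to 96800 in SN and 94250 to 105600 in TH, lower in SN in 11 of 11 mice. Oligodendrocyte sums were 43500 to 101100 in SN and 30230 to 71330 in TH, and those of their precursors 6295 to 8453 and 5178 to 6359, both higher in SN in all mice. Linear sums weigh bright members most: 8 of 27 oligodendrocyte markers were called lower, and 5 of 10 precursor markers did not pass. On signals that were not normalized, precursor sums were 5623 to 7083 in SN and 5319 to 7589 in TH. Pericyte sums (1904 to 3120 and 4128 to 6511), fibroblast sums (5048 to 10610 and 9232 to 13860) and blood sums (4368 to 9918 and 9112 to 15800) were lower in SN in 11 of 11 mice. Microglia sums overlapped, at 11850 to 18180 in SN and 12180 to 15380 in TH, and were higher in SN in 10 of 11 mice. Choroid plexus sums spread widely, from 1254 to 20000 in SN and from 1168 to 32000 in TH, with SN lower in 7 mice.

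**Figure D1:**
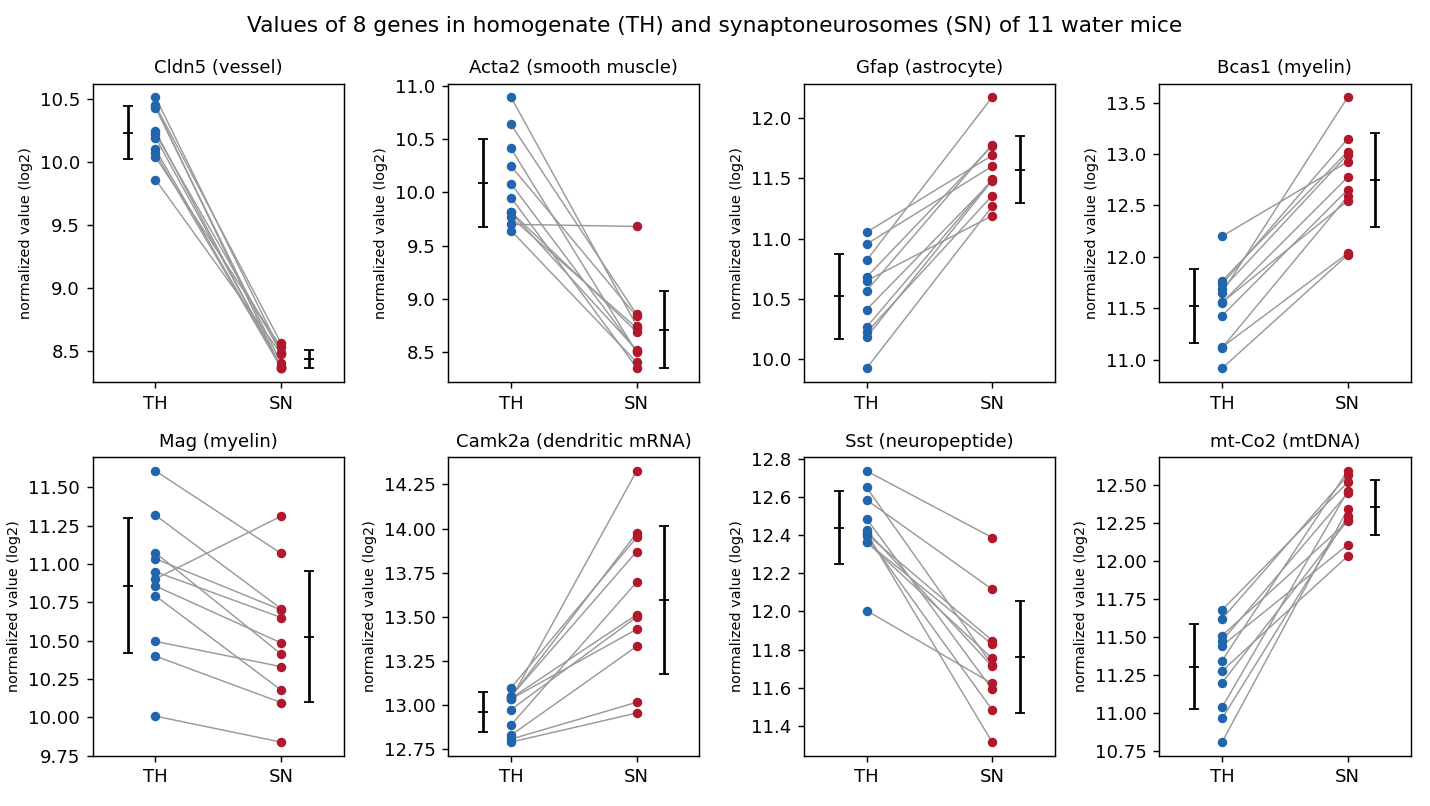
Normalized values (log2-like, each panel with its own axis) of 8 genes in TH (blue) and SN (red) of 11 water mice; grey lines join the samples of a mouse, and black bars give mean ± SD. Cldn5 lies without overlap between 8.37 and 8.56 in SN and above 9.86 in TH, Bcas1 and Mag, both of myelin, go opposite ways, and Camk2a spreads wider in SN than in TH.

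Some vessel genes were detected in TH alone. Outside the normalized table, which keeps probes detected on at least 80% of the 22 arrays, 27 probes were detected on all 11 TH arrays and on 2 or fewer SN arrays, and 2 probes the other way round. On the vessel lists were 5 of the 27. These probes had to differ by the way they were chosen, so their signals are a description. Bead signals of Icam2, an endothelial adhesion molecule, were 208.5 to 263.1 in TH (median 234.3) and 104.7 to 124.8 in SN (median 116.3). The signals of Cd93, a glycoprotein of endothelium, were 180.3 to 232.8 in TH and 103.2 to 121.5 in SN. Neither was detected on any SN array. The others of the 8 with the largest ratios were Pglyrp1, Mmrn2, which lines vessel walls, the transcription factor Gata2, Gkn3, Adgrf5 and the pericyte gene Higd1b. Listed vessel markers in the same state were Pecam1 (157.1 to 200.6 in TH, 104.2 to 128.5 in SN), the barrier transporter Slco1a4 and the arterial transcription factor Sox17. On the SN side stood Prex2, an exchange factor for the GTPase Rac (135.7 to 176.7 in SN, 118.2 to 137.6 in TH), and a probe named LOC383154.

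**Figure D2:**
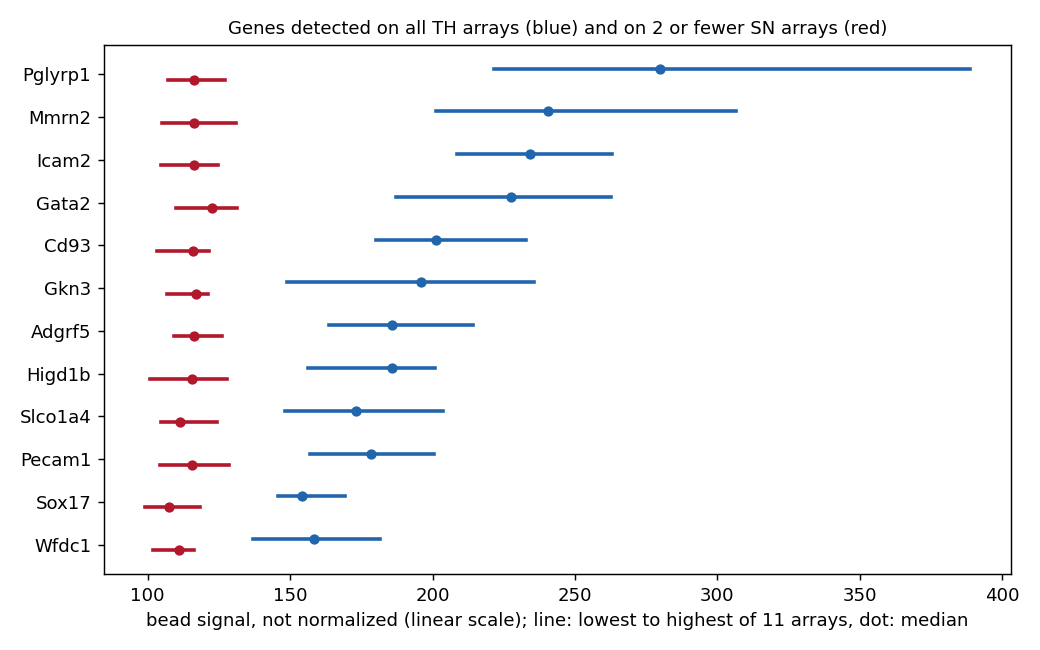
Bead signals, not normalized and on a linear scale, of the 12 probes with the largest TH to SN ratio among those detected on all 11 TH arrays and on 2 or fewer SN arrays; lines run from the lowest to the highest of 11 arrays and dots mark medians. No SN line reaches its TH line, and all SN medians lie between 107.4 and 122.5.

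Astrocyte transcripts were higher in SN almost without exception. Of 37 markers tested, 35 were called higher and 0 lower, with a median of 0.40; 29 were higher in all 11 pairs, and the arrays of 13 did not overlap. Gfap, the intermediate filament of astrocytes, read 11.19 to 12.17 in SN (median 11.49) and 9.93 to 11.05 in TH (median 10.57). All SN arrays were above all TH arrays, by 1.05 on average (SE 0.08, adjusted p = 1.44e-06). Ndrg2, of the same cells, rose by 1.01 (SE 0.05) and the glutamate carrier Slc25a18 by 0.96 (SE 0.06). Aldoc, the aldolase of astrocytes, read 13.57 to 14.04 in SN and 12.49 to 13.03 in TH, also without overlap, a rise of 0.97 (SE 0.05). Slc1a3, the glutamate transporter GLAST, rose by 0.49 (SE 0.04) and Gja1, the main gap junction protein, by 0.36 (SE 0.04), each in 11 of 11 pairs. Aqp4, the water channel of the endfeet that wrap vessels, rose by 0.51 (SE 0.07) in 10 of 11 pairs. Htra1, a secreted protease, and the amino acid transporter Slc7a10 did not pass, at 0.02 and 0.10.

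Microglial transcripts rose in part. Of 24 markers, 10 were called higher, 1 lower and 13 did not pass (median 0.10). Aif1, a calcium-binding protein of microglia, read 8.65 to 9.39 in SN (median 8.99) and 8.37 to 8.64 in TH (median 8.48), with no overlap, and rose by 0.45 (SE 0.07, adjusted p = 0.000164). Fcer1g, an adaptor of Fc receptors, rose by 0.40 (SE 0.07). The homeostatic marker P2ry12 (0.02, near the floor), Tmem119 (0.04) and the complement gene C1qa (0.12) did not pass.

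Myelin genes went in opposite directions within the same mice. Of 27 oligodendrocyte markers, 11 were called higher and 8 lower, with 8 not passing (median 0.05). Bcas1, a protein of early myelinating cells, read 12.02 to 13.55 in SN (median 12.78) and 10.92 to 12.20 in TH (median 11.56). The ranges overlapped, but within every mouse SN was the higher, by 1.23 (SE 0.09, adjusted p = 5.99e-07). Plekhb1 rose by 1.16 (SE 0.07), the myelin protein gene Mobp by 1.06 (SE 0.15) and Mbp, the gene of myelin basic protein, by 0.80 (SE 0.08), each in 11 of 11 pairs. Against these, Mag, the adhesion protein of the innermost wrap, read 9.84 to 11.31 in SN (median 10.49) and 10.01 to 11.61 in TH (median 10.90), and was lower in 10 of 11 mice, with a mean of -0.33 (SE 0.08, adjusted p = 0.00689). Cldn11, the tight junction protein of myelin, fell by 0.44 (SE 0.08), Opalin by 0.40 (SE 0.08) and Mog, the outer surface glycoprotein, by 0.29 (SE 0.08). The calls of Mag and Mog rested on the pairing by mouse: compared as unpaired groups, neither passed. The rise of Mobp is that of its brightest probe, and its second-brightest probe, detected on all 22 arrays, did not pass at 0.25 (SE 0.11). Of 10 precursor markers 4 were higher and 1 lower. Ptprz1, a receptor phosphatase of precursors and astrocytes, rose by 0.77 (SE 0.06).

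**Figure D3:**
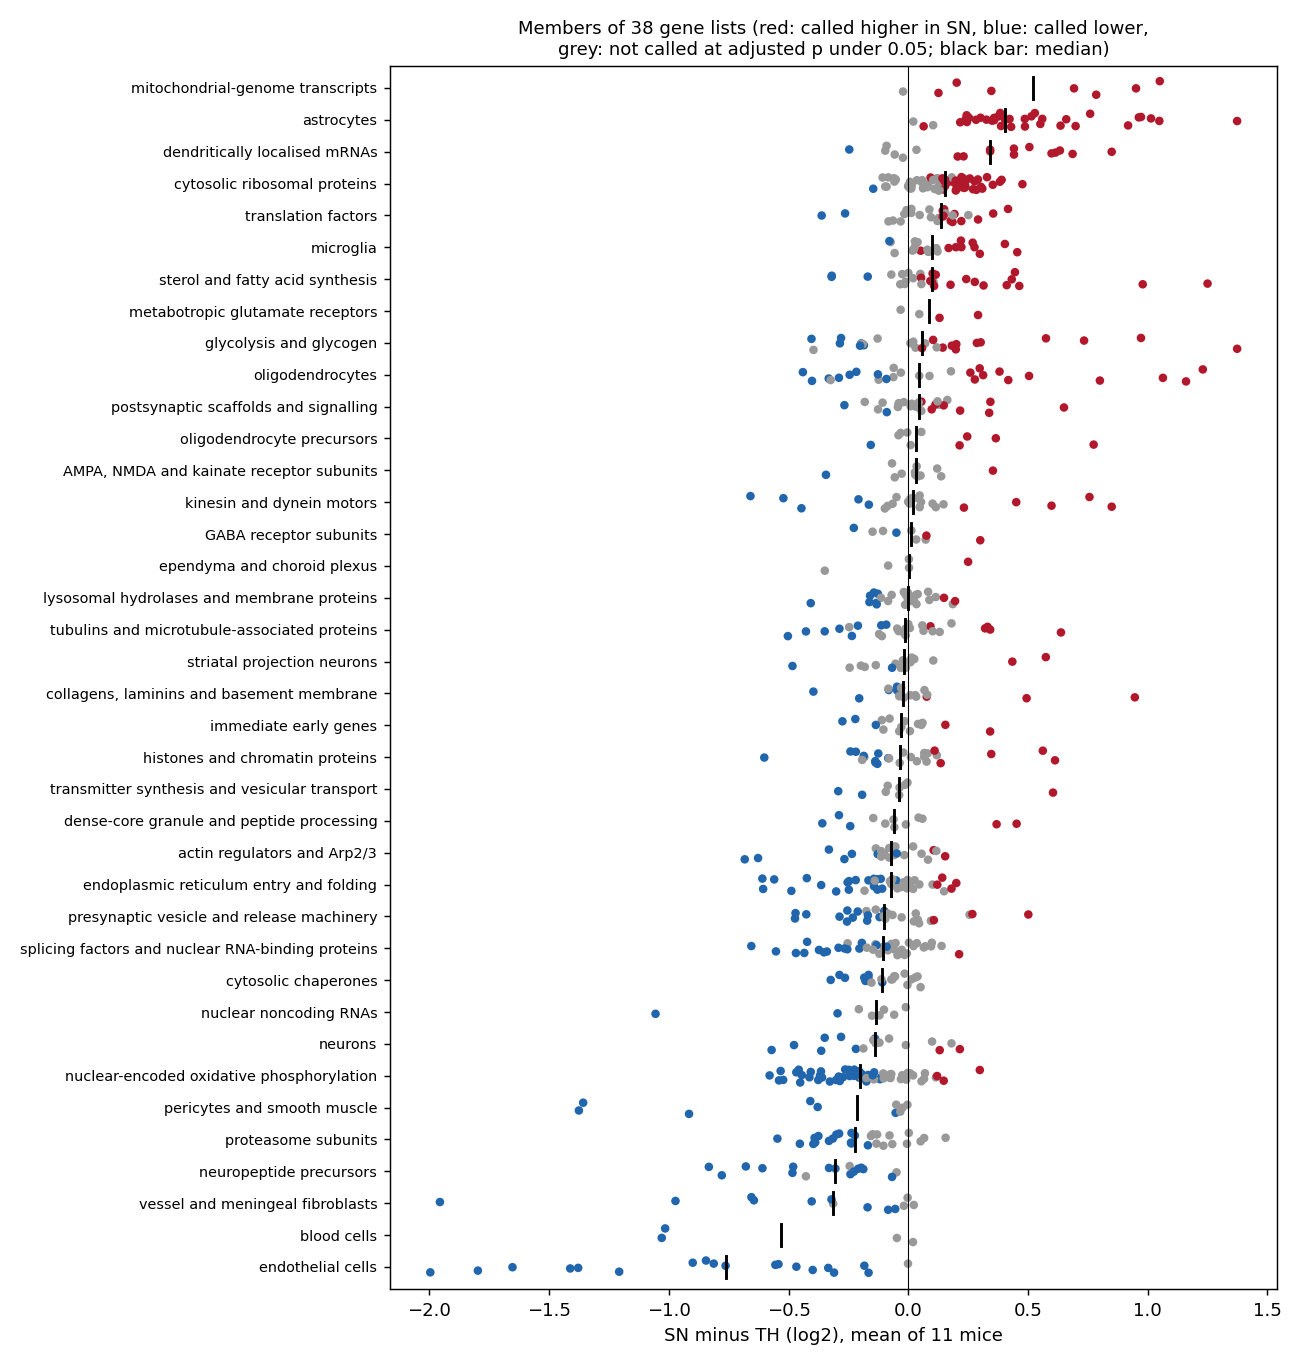
SN minus TH (log2-like, mean of 11 mice) of every tested member of 38 gene lists, ordered by list median (black bars); red points were called higher in SN, blue points lower and grey points did not pass. Endothelial markers reach -1.996 and astrocyte markers 1.37, while oligodendrocyte markers and motors have red and blue points in the same list.

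General neuronal markers leaned lower. Of 17, 7 were called lower, 2 higher and 8 did not pass (median -0.14). Uchl1, an abundant deubiquitinase of neurons, fell by 0.57 (SE 0.05) and the calcium sensor Vsnl1 by 0.48 (SE 0.06), each in 11 of 11 pairs. Celf4, an RNA-binding protein of neurons, rose by 0.22 (SE 0.04). Markers of striatal projection neurons, which border the dissected region, gave 2 higher and 2 lower of 19, with Drd1 at -0.05 and Drd2 at -0.02, neither of which passed. Without mouse 4, 7 of these 19 were called in place of 4.

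Transcripts that travel along dendrites were the neuronal group with most rises. Of 18 tested, 12 were called higher and 1 lower, with a median of 0.34, although in 8 only was every mouse higher. Camk2a, the kinase subunit of the postsynaptic density, read 12.96 to 14.33 in SN (median 13.51) and 12.79 to 13.10 in TH (median 13.04). The SN arrays were more spread and overlapped the TH arrays at their lower end, yet SN was higher in all 11 mice, by 0.63 (SE 0.09, adjusted p = 0.000171). Ddn, dendrin, rose by 0.61 (SE 0.06), Ppp1r9b, the spine scaffold spinophilin, by 0.69 (SE 0.08) and Map2, the microtubule protein of dendrites, by 0.34 (SE 0.06), the last through 1 of its 5 probes. Shank3, a postsynaptic scaffold, rose by 0.51 (SE 0.12) in 9 of 11 pairs. Nrgn, neurogranin, also a dendritic mRNA, fell by 0.25 (SE 0.04), and did not pass with the samples compared as unpaired groups. Bdnf (-0.09) and Fmr1 (-0.02) did not pass. Of 15 immediate early genes 2 were higher and 3 lower, and 2 or 3 in all were called without mouse 1, 2, 3, 5, 6, 7 or 8. Of these genes, Arc rose by 0.34 (SE 0.06) in all pairs, and Fos, at -0.01, did not pass.

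Of 26 postsynaptic scaffolds and signalling genes 8 were called higher and 2 lower, and 16 did not pass (median 0.04). Homer2, which links metabotropic receptors to the scaffold, read 10.43 to 11.37 in SN and 9.98 to 10.76 in TH, overlapping ranges, and rose by 0.65 (SE 0.06) in all pairs. Agap2, a GTPase-activating protein that binds Homer, rose by 0.34 (SE 0.10). Receptor subunits were mostly not called: of 12 AMPA, NMDA and kainate receptor genes 1 was higher (the kainate subunit Grik5, 0.35, SE 0.09) and 1 lower (Cacng3, an AMPA receptor partner, -0.34, SE 0.07), and Gria1, Gria2 and Grin1 did not pass at 0.12, -0.03 and -0.06. Without mouse 4 the number called rose from 2 to 4. Of 4 metabotropic receptors 2 were higher and 0 lower, and 1 was called without mouse 1, 3, 5, 6, 9, 10 or 13. Of 9 GABA receptor genes 2 were higher and 2 lower, with Gabrb1 at 0.30 (SE 0.07), and without mouse 2, 5 or 7 the number called fell from 4 to 2.

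Presynaptic transcripts leaned the other way. Of 29 genes of vesicles and release, 12 were called lower and 3 higher (median -0.10). Sncb, beta-synuclein, read 11.13 to 11.68 in SN (median 11.50) and 11.78 to 12.18 in TH (median 11.92). Every SN array was below every TH array, and the gene fell by 0.43 (SE 0.04, adjusted p = 7.40e-06). The vesicle SNARE Vamp2 fell by 0.29 (SE 0.05) and Cplx1, complexin, by 0.26 (SE 0.04). Rims1 and Rims2, large scaffolds of the active zone, rose by 0.50 (SE 0.10) and 0.27 (SE 0.04), each in 10 of 11 pairs. Of 9 genes of transmitter synthesis and vesicular transport 1 was higher and 2 lower. The synthetic enzymes of GABA, Gad1 and Gad2, did not pass at -0.04 and -0.09, and Abat, which breaks GABA down, rose by 0.60 (SE 0.09). The difference between the presynaptic and the dendritic lists was not tested.

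Neuropeptide mRNAs, translated on the rough endoplasmic reticulum of the cell body, were lower in SN. Of 17 precursors tested, 14 were called lower and 0 higher, with a median of -0.30. Without the pairing by mouse 9 were called. Npy, neuropeptide Y, read 9.90 to 10.48 in SN (median 10.21) and 10.84 to 11.44 in TH (median 11.01), without overlap, and fell by 0.83 (SE 0.05, adjusted p = 2.93e-07). Cck, cholecystokinin, fell by 0.78 (SE 0.05), also without overlap of its ranges of 10.80 to 11.41 and 11.56 to 12.10. Sst, somatostatin, a marker of central amygdala neurons, fell by 0.68 (SE 0.07) and Cartpt by 0.61 (SE 0.08), each in all 11 pairs. The probes of Crh and Pnoc, peptide genes of the extended amygdala, were detected on 0 of 22 arrays and show nothing here. Proteins that process peptides did not follow as a group (2 higher and 3 lower of 12): Cpe, the carboxypeptidase, rose by 0.37 (SE 0.04) and Scg5 fell by 0.36 (SE 0.05).

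Of 25 kinesin and dynein genes 5 were called higher, 5 lower and 15 did not pass (median 0.02). The genes that rose were the axonal and dendritic kinesins Kif5a (0.85, SE 0.06), Kif1a (0.76, SE 0.05), Kif5c (0.60, SE 0.04) and Kif1b (0.45, SE 0.04) and the dynein heavy chain Dync1h1 (0.23, SE 0.05). Kif5a read 13.20 to 14.12 in SN (median 13.63) and 12.42 to 13.25 in TH (median 12.79), a small overlap, and Kif5a and Kif5c are counted on the dendritic list as well. Those that fell were 5 chains of dynein and dynactin: Dynll1 (-0.66, SE 0.04), Dctn3 (-0.52, SE 0.05), Dynlrb1 (-0.45, SE 0.05), Dctn2 (-0.21, SE 0.04) and Dync1i1 (-0.16, SE 0.05). Other kinesins, among them Kif5b (-0.00), and other chains, among them Dctn1 (0.10) and Dynll2 (0.05), did not pass. The probe of Kif5b was detected at a p under 0.01 on 3 SN and 3 TH arrays, so little could be seen of it. Of 24 actin regulators 2 were higher, 7 lower and 15 did not pass, and the lowest values were those of Tmsb10 (-0.68, SE 0.05) and the Arp2/3 subunit Arpc3 (-0.63, SE 0.04). Of 28 tubulins and microtubule proteins 5 were higher and 8 lower. Stathmins, which destabilize microtubules, fell by 0.50 in Stmn3 (SE 0.05) and 0.35 in Stmn2 (SE 0.04).

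Transcripts of the mitochondrial genome and nuclear genes of the same respiratory complexes differed in direction. Of 8 mitochondrial transcripts with a probe, 7 were called higher and 0 lower, with a median of 0.52. mt-Co2, a subunit of cytochrome oxidase, read 12.03 to 12.59 in SN (median 12.34) and 10.81 to 11.68 in TH (median 11.34), with no overlap and a rise of 1.05 (SE 0.08, adjusted p = 1.36e-06). mt-Atp6 rose by 0.78 (SE 0.08), mt-Nd1 by 0.69 (SE 0.10) and mt-Nd4 by 0.20 (SE 0.03), and mt-Nd5 did not pass at -0.02. Of 62 nuclear genes of oxidative phosphorylation 40 were called lower and 3 higher, with a median of -0.20. Atp5g1, the ring subunit of ATP synthase, read 11.40 to 12.13 in SN (median 11.85) and 12.26 to 12.63 in TH (median 12.42), without overlap, and fell by 0.58 (SE 0.06, adjusted p = 7.87e-06). Ndufs4 of complex I fell by 0.54 (SE 0.07) and Cox5a of cytochrome oxidase by 0.52 (SE 0.07). Cox4i1 and Atp5a1 did not pass, at 0.02 and 0.07. The probes of the mitochondrial transcripts may also bind nuclear copies of that genome, and this was not tested.

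Ribosomal protein mRNAs rose by small amounts. Of 73 tested, 41 were called higher and 1 lower, with a median of 0.15, but only 13 were higher in every mouse. Rps3, of the small subunit, read 11.94 to 12.68 in SN (median 12.13) and 11.48 to 12.02 in TH (median 11.75), overlapping ranges, and rose by 0.48 (SE 0.06, adjusted p = 9.10e-05). Rpl37a rose by 0.39 (SE 0.06) and Rps12 by 0.33 (SE 0.03). Many such genes have near-identical processed pseudogenes, so single probes are uncertain. Of 28 translation factors 11 were higher and 2 lower: Eef1d, of elongation, rose by 0.42 (SE 0.04) and Pabpc1, the poly(A)-binding protein, by 0.29 (SE 0.04), while the helicase Eif4a1 fell by 0.36 (SE 0.04).

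Ribosomal protein mRNAs start with a run of pyrimidines, the 5′ terminal oligopyrimidine tract, through which their translation is controlled, so their start sites are shown. Each line holds 30 bases of RefSeq sequence on GRCm38.p6, 15 before the annotated start and 15 from it, 5′ to 3′ on the gene's strand, with the unbroken run of C and T that covers the start base in capitals.
Rps24: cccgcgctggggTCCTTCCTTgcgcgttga
Rplp2: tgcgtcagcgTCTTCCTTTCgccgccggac
Rps10: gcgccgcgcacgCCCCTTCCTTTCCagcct
Rps9: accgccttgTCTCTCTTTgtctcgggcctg
Rps21: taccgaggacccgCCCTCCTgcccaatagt
Rpl35: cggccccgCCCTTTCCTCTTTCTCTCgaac
Rps6: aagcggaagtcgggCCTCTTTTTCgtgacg
Rpl38: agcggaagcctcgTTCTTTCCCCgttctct
Rpl15: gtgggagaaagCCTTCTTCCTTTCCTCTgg
The opening 5 are those with the largest rise among genes with a run of at least 5 (0.35 in Rps24, 0.29 in Rplp2, 0.28 in Rps10, 0.24 in Rps9 and 0.20 in Rps21). The next 3 lay nearest to 0 (0.00 in Rpl35, 0.01 in Rps6 and 0.01 in Rpl38), and Rpl15 is the member called lower, at -0.15 (SE 0.05, adjusted p = 0.0373), a call lost under 10 of the alternatives tried, among them leaving out mouse 1, 3, 5, 7, 8, 9 or 13. They lie at chr14:24490663-24490692 (plus strand), chr7:141447636-141447665 (plus), chr17:27635230-27635259 (minus), chr7:3704026-3704055 (plus), chr2:180257364-180257393 (plus), chr2:39005117-39005146 (minus), chr4:86857353-86857382 (minus), chr11:114668565-114668594 (plus) and chr14:18270972-18271001 (minus), in the order printed. A run of at least 5 covered the annotated start in 19 of the 52 ribosomal protein genes with a window (36.5%) and in 11.8% of all 27025 genes with one. Among the ribosomal protein genes it was present in 8 of 30 called higher (26.7%) and in 11 of 22 not called higher (50%). The run may include bases before the start, and most annotated starts of these genes had none. These counts therefore describe the annotation, and a link of the tract to the rise was not tested. Annotated starts can miss the true start by several bases.

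In 4 further lists more genes were called lower than higher, the proteasome list most clearly. Their counts are to be read against the 33.1% called lower in the group of brightest genes. Of 43 genes of entry into and folding in the endoplasmic reticulum, 19 were called lower and 4 higher (median -0.07). Ssr2, of the translocon, fell by 0.61 (SE 0.03) and Ostc, of the oligosaccharyl transferase, by 0.61 (SE 0.06), while the chaperone Hspa5 did not pass at 0.01, on a probe near the floor of the scale. Of 27 proteasome genes 15 were lower and 0 higher (median -0.22). Psma5, of the core ring, read 11.27 to 11.93 in SN (median 11.69) and 12.06 to 12.30 in TH (median 12.25), without overlap, and fell by 0.55 (SE 0.05, adjusted p = 4.43e-06). Of 21 cytosolic chaperones 9 were lower and 0 higher, and of 39 splicing and nuclear RNA-binding genes 15 were lower and 1 higher, the largest fall being in Snrpd1, a core protein of the spliceosome (-0.66, SE 0.07).

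RNAs retained in the nucleus were measured by few probes. Of 8, 2 were called lower and 0 higher. Xist, which coats the inactive X chromosome, read 8.07 to 9.55 in SN (median 8.63) and 8.91 to 10.30 in TH (median 9.70). The ranges overlapped and every mouse was lower in SN, with pairs from -1.65 to -0.15 and a mean of -1.06 (SE 0.12, adjusted p = 2.58e-05). Neat1, of paraspeckles, fell by 0.30 (SE 0.05), and Meg3 did not pass at -0.15. Malat1 was not analysed here. Histone and chromatin genes went both ways (5 higher and 10 lower of 27): the variant histone H2az1 fell by 0.60 (SE 0.08), and the linker histone H1f2 and H2bc4 rose by 0.56 (SE 0.05) and 0.61 (SE 0.07).

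Of 27 genes of glycolysis and glycogen 12 were called higher, 6 lower and 9 did not pass (median 0.06). Ppp1r3c, which brings phosphatase to glycogen and is on the astrocyte list as well, read 12.13 to 12.81 in SN (median 12.44) and 10.94 to 11.37 in TH (median 11.04). It rose by 1.37 (SE 0.06, adjusted p = 2.82e-08), with no overlap. The glycogen phosphorylase Pygb rose by 0.73 (SE 0.07). Among the 6 called lower, Tpi1 fell by 0.40 (SE 0.04), Ldha by 0.29 (SE 0.04) and Gapdh by 0.19 (SE 0.03), the last changing sign, to 0.076 without passing, with arrays centred on their medians. Of 29 genes of sterol and fatty acid synthesis 16 were higher and 3 lower (median 0.10), led by the desaturases Scd1 (1.25, SE 0.07) and Fads1 (0.98, SE 0.04). Of 27 lysosomal genes 2 were higher and 7 lower. Of 18 matrix genes 3 were higher and 5 lower: Sparc, a secreted glycoprotein of astrocytes and vessels, rose by 0.95 (SE 0.08), and Bgn, biglycan, fell by 0.40 (SE 0.04).

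**Figure D4:**
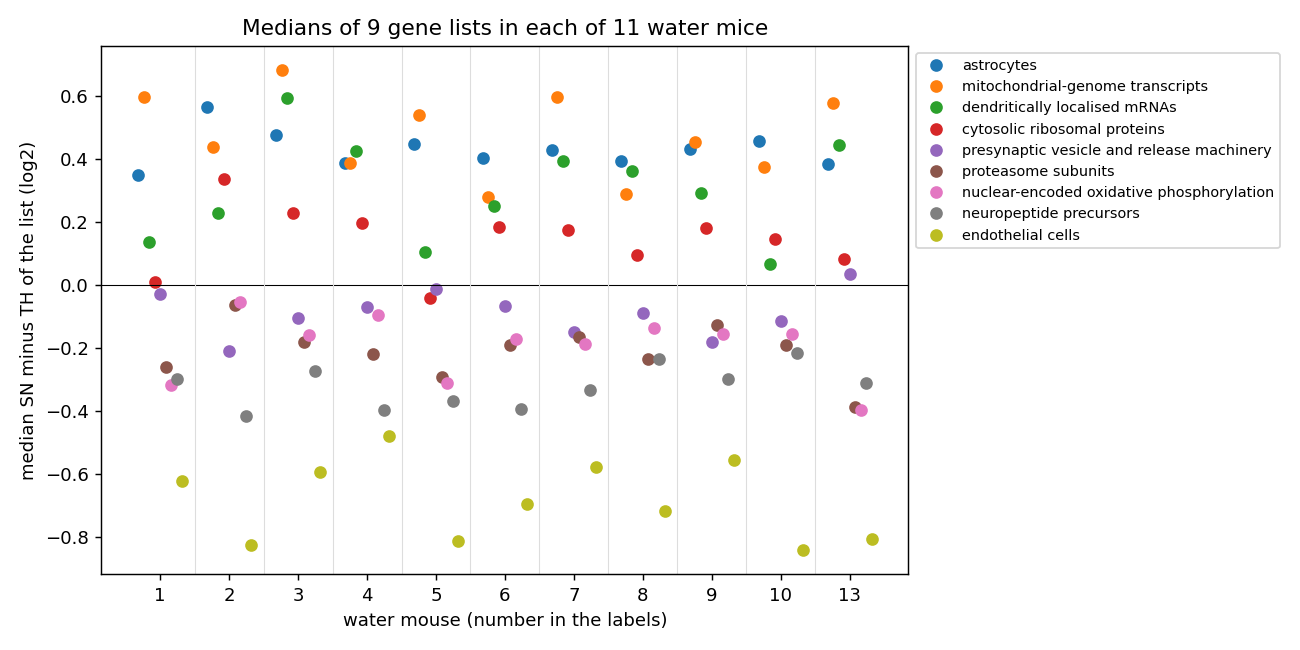
Median SN minus TH (log2-like) of 9 gene lists in each of 11 water mice, named by the number in the labels; points of a mouse are set slightly apart from left to right. Endothelial medians lie between -0.84 and -0.48 and astrocyte medians between 0.35 and 0.57 in every mouse, whereas ribosomal protein medians run from -0.04 in mouse 5 to 0.34 in mouse 2.

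The lists differed in how steady they were between mice. List medians ranged from -0.84 to -0.48 for endothelial markers, from 0.35 to 0.57 for astrocyte markers and from -0.42 to -0.21 for neuropeptides, so no mouse crossed 0. Those of ribosomal proteins ranged from -0.04 to 0.34, of dendritic mRNAs from 0.07 to 0.59 and of nuclear oxidative phosphorylation genes from -0.40 to -0.05. Among single genes with a wide spread, Pvalb, of fast-spiking interneurons, was lower in 9 of 11 mice by 0.66 on average (SE 0.16, adjusted p = 0.00542). Its values ran from -1.66 in mouse 10 to 0.43 in mouse 9, and mouse 4 was also above 0, at 0.32. These are the 2 mice whose SN array was not nearest to its own TH array; Pvalb was at -0.76 without mouse 4 and -0.77 without mouse 9, and the part of the pairing in the spread was not tested. Trh, the precursor of thyrotropin-releasing hormone, had the largest spread (SD 0.91, from -2.04 in mouse 4 to 1.72 in mouse 10) and did not pass. Of 5 ependyma and choroid plexus markers 1 was higher and 0 lower. Transthyretin of the choroid plexus, Ttr, was at -1.70 in mouse 4 and 1.28 in mouse 9, its lowest and highest values, and did not pass either.

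Longer genes were called higher more often. The 10329 protein-coding genes with an annotated position were ordered by genomic span, from start to end with introns, and split into 5 equal groups. Of the group with the shortest spans (median 4272.5 bases) 12.7% were called higher and 39.4% lower, and of the group with the longest spans (median 134451.5 bases) 30.7% were higher and 10.1% lower. The shares rose and fell steadily across the groups between. Spearman's rho of span with the SN minus TH difference was 0.28 across genes, which are not independent replicates, and the median level of the groups was 8.87 in the shortest and 8.76 in the longest. In alcohol mice rho was 0.13. Within single water mice rho ranged from 0.02 (mouse 2) to 0.38 (mouse 5). The 3 mice with the highest rho were 5, 1 and 13 (0.38, 0.37 and 0.26). In these mice the median of the oxidative phosphorylation list was lowest (-0.31, -0.32 and -0.40), while in mouse 2 it was -0.05. The genes of that list enter each mouse's rho, so the match is partly built in. SN minus TH probes detected were 405, 474 and -346 in mice 5, 1 and 13, and their part was not tested. Ribosomal protein genes did not follow the trend: 69 of 73 were in the group of shortest spans, while 41 of the 73 were called higher. Genes of oxidative phosphorylation had 34 of 62 in that group, neuropeptides 10 of 17, and AMPA, NMDA and kainate receptor genes had 10 of 12 in the group of longest spans.

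**Figure D5:**
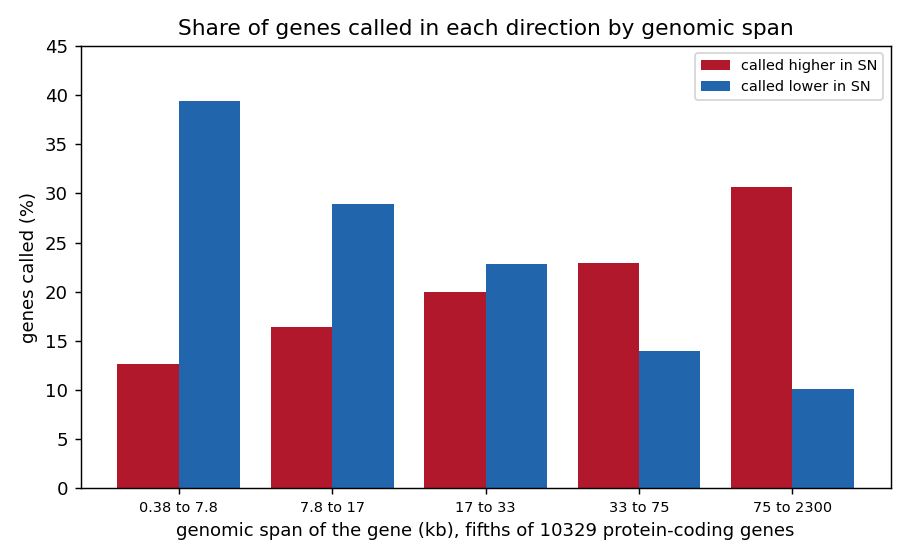
Share of genes called higher (red) and lower (blue) in SN, in percent, in 5 equal groups of 10329 protein-coding genes ordered by genomic span in kilobases; bars start at 0. From the shortest to the longest spans the share called lower drops from 39.4% to 10.1% and the share called higher climbs from 12.7% to 30.7%.

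For genes with more than 1 probe, the probes did not always tell the same story. The SN minus TH values of the 2 brightest probes differed in 760 of 3790 genes (20.1%, limma on the within-mouse difference, adjusted p under 0.05), and in 38 of these the probes were called in opposite directions. Pea15a, an adaptor of astrocytes, had a brighter probe that rose by 0.92 (SE 0.04) and a dimmer probe that fell by 0.30 (SE 0.09), a gap of 1.21 (SE 0.09, adjusted p = 1.33e-06). For Tubb2b, a beta-tubulin, the values were 0.64 (SE 0.04) and -0.17 (SE 0.05), a gap of 0.81. In Cxcl12, a chemokine of vessel cells, both probes fell but by unequal amounts, 1.96 and 0.27, and in Acta2 by 1.38 and 0.38. The other genes of the 8 with the largest gaps were Tns3, Mobp, Hopx and Pltp. The dimmer probe of Cxcl12, Tns3, Acta2, Hopx and Pltp lay close to the floor of the scale, where changes are compressed. Beyond these 8, Fbxo31 (0.53 and -0.17), the proteoglycan Cspg5 (0.37 and -0.31) and Ric3 (0.25 and -0.22) were chosen after their values were seen, as examples with opposite calls. The ribosomal protein gene Rps24, whose rise of 0.35 is given above for its brighter probe, was also among the 38. Its dimmer probe, close to the floor too, fell by 0.12 (SE 0.02), a gap of 0.47 (SE 0.07, adjusted p = 0.000179). Rises given above that rested on 1 called probe include those of Camk2a (of 2 probes), Agap2 (of 2), Gabrb1 (of 3) and Eef1d (of 2). Where on the transcript each probe lies was not used here.

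The same difference was measured in the alcohol mice. After joint normalization of log2 signals, 8042 of 17820 probes (45.1%) and 47% of genes were called between SN and TH in 8 alcohol pairs. Of the 5219 genes called in water mice, 5056 had the same sign in alcohol mice and 3982 (76.3%) were called the same way, with 2 called the other way. On this jointly normalized scale Cldn5 was -2.30 in water and -2.06 in alcohol mice, Ly6a -2.54 and -2.56, Gfap 1.08 and 1.29, Camk2a 0.61 and 0.49, and mt-Co2 1.04 and 1.07. For each of these all 8 alcohol pairs had the sign of the water mice. A test of the difference between alcohol and water mice called 0 of 17820 probes (0%, limma), with a smallest adjusted p of 0.318 and 2183 probes (12.3%) at an unadjusted p under 0.05. List medians in alcohol mice were -1.05 for endothelial markers, 0.59 for astrocytes, -0.37 for neuropeptides and 0.27 for ribosomal proteins. In water mice, on quantile-normalized signals, they were -0.97, 0.46, -0.44 and 0.15. Medians of other lists are given on such signals too, alcohol against water mice. They were -0.10 against 0.13 for metabotropic glutamate receptors and -0.05 against 0.04 for postsynaptic genes. They were -0.09 against -0.20 for nuclear genes of oxidative phosphorylation, with 28 in place of 40 called lower. For nuclear noncoding RNAs they were -0.44 against -0.15, with 7 in place of 2 called lower. These differences between lists were not tested.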

How the data were processed

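Gene expression was measured on Illumina Mouse WG-6 v2.0 BeadChips after TotalPrep amplification, per the labels. The authors deposited bead signals (intensity, not normalized), each with its detection p-value, and a table of normalized log2-like values for the comparison used here. Per the submitters' processing notes lumi was used (version not given), and which transformation it applied is not given in the sources used here. On these files, that table held the 17820 of 45281 probes whose deposited detection p-values were under 0.05 on at least 80% of the 22 arrays. The labels mark the TH arrays of control mice 11 and 12 as outliers, and these arrays are absent from the normalized values of this comparison. The SN arrays of both mice were left out with them. No array values were imputed. Some genes of the lists are counted but not reported here by name.

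Within-mouse SN minus TH differences of the deposited log2-like values were fitted with limma (3.58.1, R 4.3.3, lmFit and eBayes), with Benjamini-Hochberg adjustment over all probes. The pairing comes from the series design, in which both fractions were made from the same homogenate; same-mouse correlations were over 0.1 in 10 of 11 mice. The p-values measure the spread between mice. Each BeadChip held samples of both fractions and both treatments, per the labels, but its number was not in the file headers used here. Alcohol pairs were tested on log2 of the deposited signals, quantile-normalized jointly with the water pairs. Where several probes name a gene, the brightest on average stands for it. Of 13241 symbols, 4117 were updated and 2091 kept as given, through RefSeq genes of GRCm38.p6, which also gave spans and start-site sequences.

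Named are the 15 largest rises and falls in all 11 pairs, up to 3 called members per list and direction, the 8 largest probe gaps and the 8 largest signal ratios; 57 further genes were added after their values were seen. The comparison and the 38 lists were chosen with earlier results of these data known. On simulated data for this comparison, with 17820 probes, 85 of 100 shifts of 0.25 and 97 of 100 of 0.5 were recovered, with 5 false calls. Array number limits the precision. Alternatives were other normalizations, background correction, filters, thresholds, no pairing and leaving out each mouse.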

Additional observations from a re-analysis of the deposited data

Results flagged for a closer look

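In the bead signals outside the authors' normalized table, which no comparison above tests, 27 probes were detected on all 11 TH arrays and on 2 or fewer SN arrays, and 2 probes on all 11 SN arrays and on 2 or fewer TH arrays. They are listed here because they carry signal in data the main measurement leaves out. Of the 27 probes, 13 were detected on every TH array of the 8 alcohol mice and on no SN array of theirs. Among them were Icam2, Cd93, Slco1a4, Pecam1 and Sox17, endothelial genes, and Gch1, which makes the cofactor of dopamine and nitric oxide synthesis, with 150.6 to 178.7 in TH and 108.6 to 131.1 in SN of the water mice. Prex2 and LOC383154 were detected on all 8 SN arrays of the alcohol mice and on 1 and 0 of their TH arrays.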

How the results depend on the processing

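Of 7045 probes called, between 6360 and 7019 were called with a mouse left out. The number called higher, 3368, became 5800 with arrays centred on their medians, and lay between 3022 and 3349 with a mouse left out; the cause was not tested. Without the pairing by mouse (no replicate block) 6109 probes were called in water mice and 6427 of 8042 in alcohol mice. SN arrays detected fewer probes than TH arrays by -459.4 on average, by -688.4 at a detection p under 0.05 (exact p = 0.00586), and by -552.7 to -331.7 with a mouse left out; the test passed 0.05 without replicate 1 (-552.7, exact p = 0.0156) and without replicate 5 (-545.8, exact p = 0.0234). The 27 probes of TH became 14, and the 2 of SN became 1, with 0 arrays of the other fraction allowed; at a detection p under 0.05 they were 34 and 1. At an adjusted p under 0.01, 4767 probes were called. Of 198 called genes, 30 missed the threshold under at least 1 alternative, and 1 changed sign, Gapdh (0.076 with arrays centred on medians). Of 28 named genes that did not pass, 14 of 420 values under alternatives did. The number called changed by over 1.5 times under some alternative in 8 of 38 lists. BeadChip as a block was not run. Signals near background limit what can be seen of dim genes, since the scale is compressed there.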

Other observations

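Chromosome and transcript class were tabulated as well. Of 335 genes on the X chromosome 15.5% were called higher in SN and 29% lower, against 20% and 21.3% of all genes. Of 157 long noncoding RNA genes 21 were called higher and 42 lower. The correlation of genomic span with the SN minus TH difference, 0.28 in the authors' values, was 0.25 with median-centred signals and 0.13 in alcohol mice, as a description across genes.

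Dcn, decorin of fibroblasts, ran from -1.90 in mouse 4 to 0.85 in mouse 10, and Meg3 from -0.94 in mouse 2 to 1.32 in mouse 13. Probes of Actb, cytoplasmic actin, spread from -0.57 to 0.47, with 2 of 5 called higher and 2 lower.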
